A study of Homo sapiens with 6 samples.

Results

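The genes examined here are 7 factors of nonsense-mediated mRNA decay (NMD): UPF1, UPF2, UPF3A, UPF3B, SMG1, SMG5 and SMG6. They were taken by gene symbol as named members of the pathway, with earlier results of these data known. The RNA-seq files listed 26334 gene symbols and 51398 RefSeq isoforms, of which these 7 genes held 14 isoforms. A count above 0 was found for 13 of the 14 isoforms in at least 1 library, and the SMG6 isoform NM_001256827 was listed at 0 in all 6. All cells were PC-9, a human EGFR-mutant lung adenocarcinoma cell line, grown in RPMI with 10% FBS and given no drug. Cells expressed a scrambled shRNA (shScr, the control) or 1 of 2 shRNAs against RBM10 (shRBM10#1 and shRBM10#2), an RNA-binding protein that regulates splicing, and each condition had 2 libraries. Each condition is thus the same cell line with 1 hairpin, and nothing in the labels says whether the 2 libraries of a condition came from separate cultures, so the p-values below measure only the spread between these libraries, which may be technical.

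NMD degrades mRNAs on which translation ends too early, such as those with a premature stop codon upstream of an exon junction, and it also sets the level of a number of normal transcripts. The helicase UPF1 is recruited when a ribosome terminates and is phosphorylated by the kinase SMG1, with UPF2 and a UPF3 protein linking it to the exon junction complex that splicing leaves on the mRNA. Phosphorylated UPF1 is then bound by SMG6, an endonuclease that cuts the mRNA, and by SMG5, which helps to bring in deadenylation and decapping enzymes. Many splicing changes create premature stop codons, and NMD therefore shapes what is seen of alternative splicing in RNA-seq data.

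For 3 of the 7 genes the isoforms in the files differed by a short stretch of coding sequence inside the mRNA. These stretches are shown because the isoform shares given further on separate the transcripts with them from those without. Each is printed in the direction of the transcript, with the alternative segment in capitals and 15 nt of the neighbouring transcript sequence on either side in lower case. The sequences and positions were read from GENCODE 29 on GRCh38, whereas the files were made on hg19, and no coordinate was converted between the builds. The UPF1 segment lay at chr19:18853072-18853104 on the plus strand, as part of coding exon 7 of NM_001297549, and holds 33 nt (11 codons). It is known as an extension of a regulatory loop in the helicase core. The UPF3A segment is the whole of exon 4 of NM_023011 (99 nt, 33 codons), at chr13:114286302-114286400 on the plus strand. The UPF3B segment is the whole of exon 8 of NM_080632 (39 nt, 13 codons), at chrX:119840646-119840684 on the minus strand.
UPF1, segment in NM_001297549 and not in NM_002911: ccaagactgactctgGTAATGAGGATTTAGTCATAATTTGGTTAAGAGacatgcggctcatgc
UPF3A, segment in NM_023011 and not in NM_080687: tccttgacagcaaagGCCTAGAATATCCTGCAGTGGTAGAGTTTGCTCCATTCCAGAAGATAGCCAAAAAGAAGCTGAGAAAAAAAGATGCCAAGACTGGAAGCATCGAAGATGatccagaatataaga
UPF3B, segment in NM_080632 and not in NM_023010: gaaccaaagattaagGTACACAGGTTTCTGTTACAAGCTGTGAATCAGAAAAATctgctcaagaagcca

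The other 4 genes had no such segment. Both UPF2 isoforms encode the same 1272 codons and differ in a non-coding first exon. The SMG6 isoform NM_001256828 starts at another first exon (chr17:2236797-2237037 on the minus strand, 241 nt, non-coding) and lacks the first coding exons of NM_017575, so that it holds 511 codons against 1419. The short SMG6 isoform was 3241 nt long in the files and 1865 nt in GENCODE 29. SMG1 and SMG5 were each represented by 1 isoform.

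The libraries held between 31953729 and 37557507 expected counts. The epithelial genes EPCAM (379 to 455 TPM) and CDH1 (111 to 134 TPM) were high in all 6 libraries, whereas the leukocyte gene PTPRC (0.02 to 0.05 TPM) and the fibroblast gene DCN (0 to 0.02 TPM) were near 0. Of the other markers of non-epithelial cells, COL1A2 (fibroblasts) had 0 to 0.11 TPM. COL1A1 (fibroblasts, 1.99 to 2.88 TPM) and PECAM1 (endothelium, 1.16 to 1.64 TPM) were low but above 0 in every library. RBM10 itself was 83.2 and 86.2 CPM in shScr cells, 59.8 and 56.4 in shRBM10#1 cells, and 27.2 and 26.9 in shRBM10#2 cells, where CPM is the read count scaled to the library total with TMM factors. RBM10 thus remained at 68.6% of the shScr level with shRBM10#1 and at 31.9% with shRBM10#2, and the hairpins are kept apart below for that reason. One control library, shScr replicate 2, had a mean fragment length of 231 nt against 265 to 281 nt in the other libraries, and its part in the results was not tested beyond leaving it out.

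Compared per length of transcript, the 7 factors differed in level. In shScr cells UPF1 was highest at 81.1 TPM (the authors' length-scaled abundance, mean of 2 libraries), followed by SMG5 at 63.9, UPF3B at 38.4, UPF3A at 23.8, SMG6 at 21.4, UPF2 at 13.1 and SMG1 at 10.8 TPM. All lay above the median of 6.98 TPM over the 17621 genes with a value above 0, from the 57.2th percentile for SMG1 to the 89.8th for UPF1. Within each of the 6 libraries the 7 genes kept this same order, although the ranges of some neighbours overlapped between libraries. Over all 6 libraries UPF1 ranged from 62.5 to 86.7 TPM and SMG5 from 48.9 to 69.8 TPM, so that these ranges overlapped. UPF3A (21.5 to 25.7 TPM) and SMG6 (14.2 to 23.4 TPM) overlapped likewise, as did SMG6 and UPF2 (11.6 to 14.5 TPM) and UPF2 and SMG1 (8.10 to 12 TPM). UPF3B (26.1 to 40.9 TPM) overlapped neither of its neighbours.

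With shRBM10#1, UPF3B was the member that fell, and with shRBM10#2, UPF1, UPF3B, SMG5 and SMG6 fell, with log2 fold changes between −0.30 and −0.42. No member rose with either hairpin. UPF2, UPF3A and SMG1 did not pass the test in any comparison. Because these are bulk libraries, fewer cells expressing a gene and less RNA per cell cannot be told apart.

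**Figure D1:**
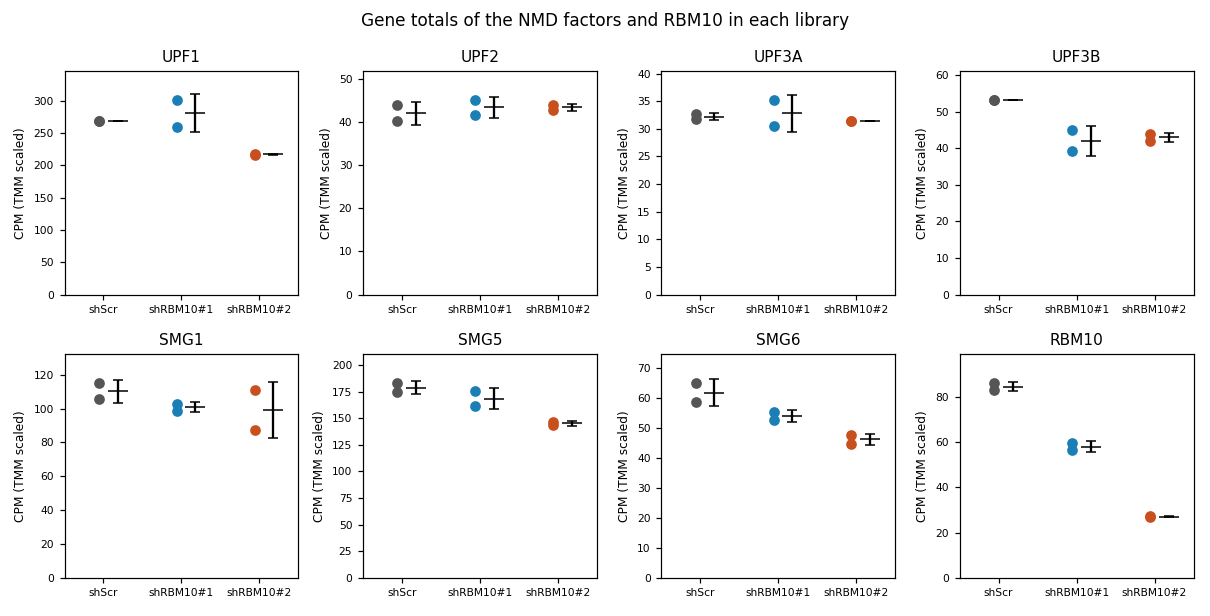
Gene totals of the 7 NMD factors and of RBM10 in CPM (TMM scaled, y axis from 0) for the 2 libraries of each condition. Points are libraries, and the horizontal line with its bar is the mean ± SD (n = 2). UPF3B lies lower in all 4 RBM10 KD libraries (39.1 to 44.9 CPM) than in shScr (53.2 CPM in both), and UPF1, SMG5 and SMG6 are lowest in the 2 shRBM10#2 libraries.

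The helicase UPF1 showed 269 and 268 CPM in shScr cells, 301 and 259.6 in shRBM10#1 cells, and 217 and 217 in shRBM10#2 cells. Both shRBM10#2 libraries lay below the other 4, whereas the shRBM10#1 libraries fell on either side of the controls. Against the controls, UPF1 had a log2 fold change of 0.06 with shRBM10#1 (SE 0.0731, FDR = 0.624) and −0.31 with shRBM10#2 (SE 0.0733, FDR = 0.00945), the latter 80.8% of the control level. The FDR here and below is from edgeR's quasi-likelihood test with Benjamini-Hochberg adjustment over all 14217 genes tested, and a gene was called changed at an FDR below 0.05.

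Among the adaptors that bridge UPF1 to the exon junction complex, UPF2 and UPF3A stayed close to the control level and UPF3B did not. UPF2 had 40.1 and 43.8 CPM in shScr cells, 45.0 and 41.6 in shRBM10#1 cells, and 43.8 and 42.8 in shRBM10#2 cells. Its log2 fold change was 0.05 with either hairpin, with 95% intervals of −0.12 to 0.21 in both cases, and the libraries overlapped. UPF3A had 31.7 and 32.6 CPM in shScr cells, 30.5 and 35.2 in shRBM10#1 cells, and 31.5 in both shRBM10#2 libraries. Its log2 fold changes were 0.03 (95% interval −0.14 to 0.21) and −0.03 (−0.21 to 0.15), so that changes within these intervals were not excluded.

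UPF3B, the X-linked paralog of UPF3A, showed 53.2 CPM in both control libraries, 44.9 and 39.1 in shRBM10#1 cells, and 42.0 and 43.9 in shRBM10#2 cells. All 4 RBM10 KD libraries were below both controls. The log2 fold change was −0.34 with shRBM10#1 (SE 0.0778, FDR = 0.0114) and −0.31 with shRBM10#2 (SE 0.0773, FDR = 0.0122), that is 78.9% and 80.8% of the control level. UPF3B was the member called with both hairpins. These comparisons share the same 2 shScr libraries, whose UPF3B values were almost equal, so they are not independent of each other.

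The kinase SMG1 had 105 and 115 CPM in shScr cells, 103 and 98.6 in shRBM10#1 cells, and 111 and 87.4 in shRBM10#2 cells. The shRBM10#2 libraries lay on either side of shScr replicate 1, and neither log2 fold change passed the test (−0.13, FDR = 0.407, and −0.15, FDR = 0.268). SMG1 also has near-identical copies on chromosome 16, the SMG1P genes, with which its reads may be shared. Counts assigned to the SMG1P genes equalled 55.3% to 63.9% of the SMG1 counts in 5 libraries and 77.9% in shRBM10#2 replicate 2, the library in which SMG1 was lowest. With the SMG1P counts added, the log2 fold changes of SMG1 were −0.14 with shRBM10#1 and −0.04 with shRBM10#2, so the SMG1 values are uncertain.

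The UPF1-binding factors SMG5 and SMG6 were lowest with shRBM10#2. SMG5, which links UPF1 to deadenylation and decapping, had 174 and 183 CPM in shScr cells, 175 and 161 in shRBM10#1 cells, and 147 and 144 in shRBM10#2 cells. Its shRBM10#1 libraries overlapped the controls (log2 fold change −0.09, SE 0.0656, FDR = 0.427), and both shRBM10#2 libraries lay below all others (−0.30, SE 0.0657, FDR = 0.00613, 81.2% of the control level). SMG6, the endonuclease, had 58.6 and 65.0 CPM in shScr cells, 55.5 and 52.7 in shRBM10#1 cells, and 47.6 and 44.8 in shRBM10#2 cells. The SMG6 libraries of the 3 conditions did not overlap. With shRBM10#2 SMG6 fell by 0.42 log2 units (SE 0.0751, FDR = 0.00212) to 74.8% of the control level, the lowest percentage among the 7 members, and with shRBM10#1 its log2 fold change of −0.19 (SE 0.0749, FDR = 0.111) did not pass the test.

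**Figure D2:**
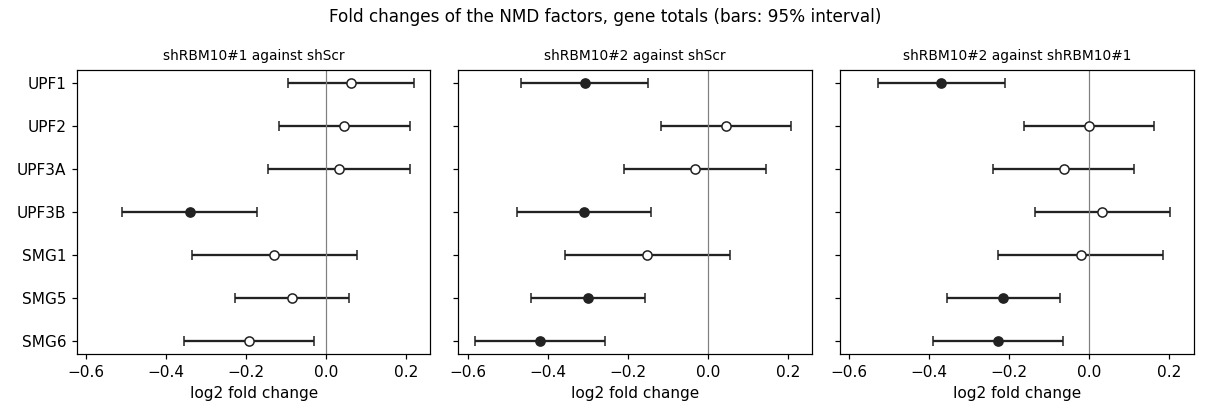
Log2 fold changes of gene totals for the 7 NMD factors in the 3 comparisons between single conditions (x axis), 1 row per gene. Points are edgeR estimates with 95% intervals, and filled points have an FDR below 0.05. UPF3B is filled in both comparisons with shScr (−0.34 and −0.31), and UPF1, SMG5 and SMG6 are filled with shRBM10#2 against shScr and against shRBM10#1.

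Set against all genes, 1 of 7 members was called with shRBM10#1, where 14.0% of genes were called and 6.91% were called lower. With shRBM10#2, 4 of 7 were called, all lower, where 25.9% of genes were called and 13.9% were called lower. Every shRBM10#1 library lay below every shScr library for 3 members (UPF3B, SMG1 and SMG6) and for 25.7% of genes, and every shRBM10#2 library did so for 5 members (UPF1, UPF3A, UPF3B, SMG5 and SMG6) and for 33.0% of genes. The members' median log2 fold change was −0.09 with shRBM10#1 and −0.30 with shRBM10#2, and the median over all genes was 0.0079 and 0.0054. With shRBM10#1 the call count was thus near the background share, and with 7 members no more can be read from it.

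Leaving out 1 library leaves a condition with a single library, which is then assumed to vary like the other conditions. Fewer genes then pass in most cases, so that a lost call is to be read with its fold change. The UPF3B call with shRBM10#1 was lost without shScr replicate 1 (FDR = 0.0512), without shScr replicate 2 (FDR = 0.0616) and without shRBM10#1 replicate 2 (FDR = 0.0790), with log2 fold changes of −0.34, −0.34 and −0.24, while the genes called went from 1996 to 1323, 985 and 1167. With shRBM10#2, 3 members were called without shScr replicate 1 (UPF3B was lost), 1 without shRBM10#2 replicate 1 (SMG6 was kept) and 0 without shRBM10#2 replicate 2. Over all genes the calls went from 3685 to 2210, 1222 and 954 in these cases. Without shRBM10#2 replicate 1 or 2, the log2 fold changes of the members that lost their call were −0.30 and −0.31 for UPF1, −0.28 and −0.34 for UPF3B, and −0.31 and −0.28 for SMG5, and SMG6 had −0.37 without replicate 2, each close to its value with all libraries.

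Whether the hairpins differed was tested directly between shRBM10#2 and shRBM10#1. UPF1 was lower with shRBM10#2 by a log2 fold change of −0.37 (SE 0.0732, FDR = 0.00359), SMG5 by −0.21 (SE 0.0657, FDR = 0.0307) and SMG6 by −0.23 (SE 0.0754, FDR = 0.0424). None of these 3 genes overlapped between the hairpins, and every shRBM10#2 value was the lower, as it was for 32.1% of all genes. UPF3B did not pass the test between the hairpins, and its difference of 0.03 had a 95% interval of −0.14 to 0.20. The intervals were −0.16 to 0.16 for UPF2, −0.24 to 0.11 for UPF3A and −0.23 to 0.18 for SMG1. The 3 calls among 7 members compare with 25.5% of all genes called, and with 14.5% called lower. SMG6 missed the threshold in DESeq2 (FDR = 0.0506). Without shRBM10#1 replicate 1, UPF1 was called, while SMG5 (−0.15, FDR = 0.108) and SMG6 (−0.19, FDR = 0.128) were not. Without shRBM10#2 replicate 1 or 2 none was called, where the genes called went from 3628 to 1157 and 918 and the fold change of UPF1 was −0.37 and −0.36.

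With the 4 RBM10 KD libraries pooled as 1 group against shScr, no member was called, where 1.62% of genes were called. UPF3B had the smallest FDR of the 7 (log2 fold change −0.32, SE 0.0832, FDR = 0.0956), followed by SMG6 (−0.30, SE 0.103, FDR = 0.183) and SMG5 (−0.19, SE 0.0955, FDR = 0.348). At an unadjusted p below 0.05, 2 members passed in edgeR (UPF3B and SMG6), where 2450 of the 14217 genes passed. At an FDR below 0.05 DESeq2 called 1 member (UPF3B), where 718 genes were called in all. All 4 RBM10 KD libraries lay below both shScr libraries for UPF3B and SMG6, as for 14.5% of all genes. RBM10 was itself not called in this pooled fit (log2 fold change −0.99, FDR = 0.146), with the hairpins at 68.6% and 31.9% of the control level as given above. When each condition had its own coefficient and the hairpins were averaged afterwards, 3 members were called (SMG5, SMG6 and UPF3B). In that fit 2610 of the 14217 genes were called.

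At the level of isoforms, 12 of the 14 were tested among 26464, and none met the criteria of an FDR below 0.05 and an absolute log2 fold change above 1, in edgeR or in DESeq2. The criteria were met by 0.0227% of all isoforms with shRBM10#1, by 0.491% with shRBM10#2, by 0.359% between the hairpins and by 0% in the pooled comparison. At an unadjusted p below 0.05 in edgeR there were 1, 4, 3 and 1 member isoforms in these comparisons, and among all isoforms 3832, 5699, 5377 and 2875. In the pooled comparison DESeq2 called 271 isoforms by the same criteria, none of them of a member. On simulated counts, the edgeR isoform test recovered 52% of isoforms changed by 2 log2 units at an FDR below 0.05, so real changes can be missed.

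The short SMG6 isoform NM_001256828 had the largest fold change among the member isoforms with an FDR below 0.05. It had 671 and 585 expected counts with shScr, 555 and 626 with shRBM10#1, and 373 and 441 with shRBM10#2, so both shRBM10#2 libraries were lowest although they were among the deepest. The log2 fold change with shRBM10#2 was −0.83 (SE 0.127, FDR = 0.0488), short of the fold criterion, and the full-length NM_017575 had −0.26 (SE 0.124, FDR = 0.301). As a share of all SMG6 counts, the short isoform took 35.3% (95% Wilson interval 33.2 to 37.5) and 27.3% (25.5 to 29.3) in shScr cells, 32% (29.8 to 34.2) and 32.3% (30.2 to 34.4) in shRBM10#1 cells, and 21.1% (19.3 to 23.1) and 25.7% (23.7 to 27.8) in shRBM10#2 cells. The shRBM10#2 shares were the lowest, but the 2 shScr shares differed from each other by more than shScr replicate 2 differed from shRBM10#2 replicate 2. The intervals cover counting error only, and reads were divided among isoforms by estimation.

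For UPF1, the isoform without the 33 nt segment (NM_002911) accounted for most counts and had the more negative fold changes with shRBM10#2. Its log2 fold change was −0.36 with shRBM10#2 relative to shScr (SE 0.0655, FDR = 0.0602) and −0.43 relative to shRBM10#1 (SE 0.0655, FDR = 0.0488), against 0.04 (SE 0.246) and 0.0018 (SE 0.245) for NM_001297549. The share of UPF1 counts on the isoform with the segment printed above was 14.3% (13.6 to 15.1) and 11.7% (11.1 to 12.4) in shScr cells, 14.6% (14 to 15.4) and 10.8% (10.2 to 11.5) in shRBM10#1 cells, and 18.5% (17.6 to 19.3) and 14.7% (14 to 15.5) in shRBM10#2 cells. Both shRBM10#2 libraries had the highest shares, by a margin smaller than the gap between replicates.

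For UPF3B, the isoform with the 39 nt exon (NM_080632) held 46.4% (44.0 to 48.7) and 40.8% (38.5 to 43.1) of the counts in shScr cells, 34.6% (32.2 to 37.1) and 37.7% (35.3 to 40.3) in shRBM10#1 cells, and 42.0% (39.5 to 44.4) and 39.8% (37.5 to 42.2) in shRBM10#2 cells. The shRBM10#1 libraries were lowest, and the shRBM10#2 libraries overlapped the controls. NM_080632 had log2 fold changes of −0.61 (SE 0.0982, FDR = 0.0921) and −0.40 (SE 0.0976, FDR = 0.0978) with the 2 hairpins, and the form without the exon −0.16 and −0.24.

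The UPF3A isoform with exon 4 (NM_023011) had mean shares of 46.5%, 51.6% and 44.9% with shScr, shRBM10#1 and shRBM10#2, and the shScr libraries alone spanned 42.5% (39.5 to 45.4) to 50.5% (47.4 to 53.5). The UPF2 isoform with the other first exon (NM_080599) was the minor one, with mean shares of 6.45%, 10.1% and 9.95%. Its log2 fold change of 0.65 with shRBM10#1 had an SE of 0.427, and 65.1 to 205 expected counts were assigned to it per library.

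**Figure D3:**
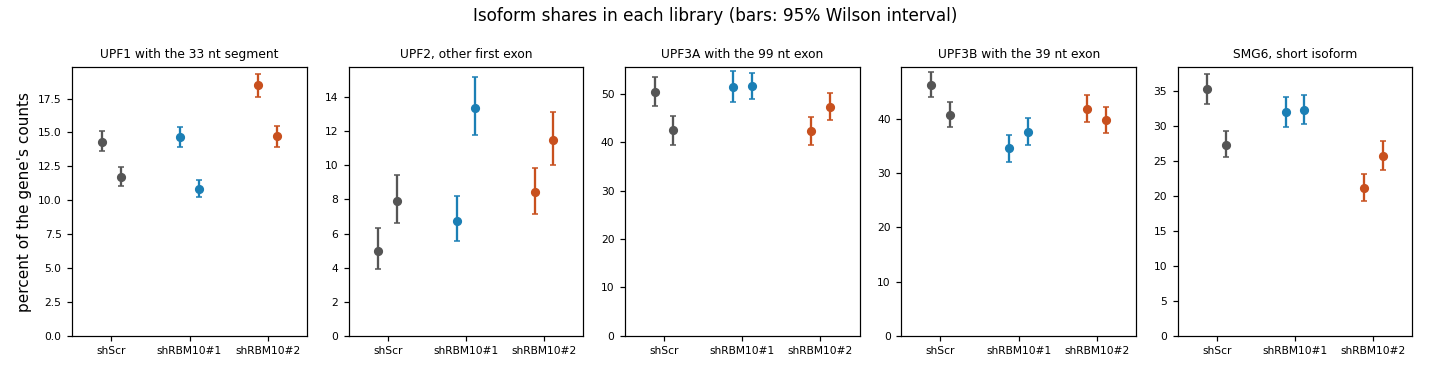
Share of each gene's expected counts (percent, y axis from 0) on 1 isoform of UPF1, UPF2, UPF3A, UPF3B and SMG6 in each library, with replicate 1 on the left and replicate 2 on the right within a condition. Bars are 95% Wilson intervals, which cover counting error only. The SMG6 short isoform is lowest with shRBM10#2 (21.1% and 25.7%), and replicates of 1 condition often differ by more than their counting intervals.

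A test of the shares themselves, edgeR's diffSpliceDGE with Simes p-values per gene and Benjamini-Hochberg adjustment over 6405 genes, could be run for the 5 members with at least 2 tested isoforms. It called none of them in any comparison, and none had an unadjusted p below 0.05. On simulated counts for shRBM10#2 against shScr, this test recovered 30% of 200 genes with 1 isoform changed by 2 log2 units. The lack of a call therefore does not show that usage was unchanged. The smallest p was 0.141, for SMG6 between the hairpins (FDR = 0.942). limma's diffSplice likewise called none of the 5. Over all genes, the edgeR test called 0.172% with shRBM10#1, 2.75% with shRBM10#2, 1.92% between the hairpins and 0.515% in the pooled comparison, with 395, 663, 556 and 348 genes at an unadjusted p below 0.05.

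Other parts of the pathway are given by list, with the 3 genes of lowest FDR named where any were called. The calls in each list are to be set beside the share of all genes called. That share was 14.0% with shRBM10#1, 25.9% with shRBM10#2 and 25.5% between the hairpins. Of 7 other NMD factors (SMG8, SMG9, DHX34, NBAS, PNRC2, RUVBL1 and RUVBL2), none was called with shRBM10#1 in edgeR or DESeq2, and 1 had an unadjusted p below 0.05. With shRBM10#2, 1 was lower, RUVBL2, an ATPase that acts with SMG1 (251 and 254 CPM with shScr, 216 and 220 CPM with shRBM10#2, log2 fold change −0.21, FDR = 0.0266). Between the hairpins 3 were lower with shRBM10#2, namely RUVBL2 (−0.29), NBAS (−0.27) and DHX34 (−0.23), the last not called by DESeq2 (FDR = 0.0573). The RUVBL2 call against shScr was lost when any 1 shScr or shRBM10#2 library was left out. Between the hairpins all 3 calls were lost without either shRBM10#2 library, and those of NBAS and DHX34 also without shRBM10#1 replicate 1. The list medians were 0.09, −0.05 and −0.14 in these comparisons, beside 0.0079, 0.0054 and 0.0068 over all genes.

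The exon junction complex, which marks where an intron was removed, had 6 genes in the list (EIF4A3, MAGOH, MAGOHB, RBM8A, CASC3 and RNPS1). With shRBM10#1, RNPS1, a peripheral component that also acts in splicing, was lower (246 and 213 CPM with shScr, 156 and 151 CPM with shRBM10#1, log2 fold change −0.58, FDR = 0.000266). With shRBM10#2, RNPS1 had 241 and 244 CPM, within the range of shScr, and it was higher than with shRBM10#1 by 0.66 log2 units (FDR = 0.000154). MAGOHB was higher (0.22, FDR = 0.0462) and CASC3 lower (−0.22, FDR = 0.0307) with shRBM10#2 relative to shScr, and both calls were lost when any 1 of the shScr or shRBM10#2 libraries was left out. MAGOHB was not called by DESeq2 either (FDR = 0.109). The list medians were −0.05 with shRBM10#1 and −0.03 with shRBM10#2. Over all genes, 14.0% were called with shRBM10#1, 25.9% with shRBM10#2 and 25.5% between the hairpins.

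Neither tested gene of the translation termination list, ETF1 and GSPT1, was called in any comparison in edgeR or DESeq2, and none had an unadjusted p below 0.05. GSPT2 was too low to be tested. Of 9 genes for decapping and mRNA decay (DCP1A, DCP1B, DCP2, EDC4, XRN1, XRN2, CNOT1, PAN2 and PAN3), none was called with shRBM10#1 in either tool (2 at an unadjusted p below 0.05). With shRBM10#2, the decapping enzyme DCP2 (0.30, FDR = 0.0178) and the deadenylase subunit PAN2 (0.29, FDR = 0.0235) were higher and the decapping scaffold EDC4 (−0.26, FDR = 0.0175) was lower. DESeq2 did not call PAN2 (FDR = 0.0502). EDC4 was also lower with shRBM10#2 than with shRBM10#1 (−0.24, FDR = 0.0254), but not without shRBM10#1 replicate 1 (−0.15, FDR = 0.118) or either shRBM10#2 library. Against shScr, the EDC4 call was lost without any 1 shScr or shRBM10#2 library, that of DCP2 without shScr replicate 1 or shRBM10#2 replicate 1, and that of PAN2 without shScr replicate 2 or either shRBM10#2 library. The list medians were −0.05 with shRBM10#1 and −0.0019 with shRBM10#2. The decay genes called are to be read beside the 25.9% of all genes called with shRBM10#2 and the 25.5% called between the hairpins.

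The list of known NMD targets held 8 genes (GADD45A, GADD45B, ATF4, ATF3, DDIT3, TBL2, UPP1 and GAS5), whose transcripts NMD is known to keep low. In the comparisons with shScr, those that were called were lower rather than higher, whereas between the hairpins 4 were called higher with shRBM10#2. With shRBM10#1, 5 of 8 fell and none rose, and with shRBM10#2, 3 of 8 fell and none rose, where 6.91% and 13.9% of all genes were called lower. GADD45A, a stress-induced growth arrest gene, had 34.2 and 30.5 CPM in shScr cells, 18.6 and 17.5 in shRBM10#1 cells, and 23.8 and 22.3 in shRBM10#2 cells. Its log2 fold changes were −0.84 (FDR = 6.86e-05) and −0.49 (FDR = 0.00186), and it was the gene of this list called in the pooled comparison (−0.65, FDR = 0.0474). ATF3, a stress-responsive transcription factor, had 11.3 and 8.60 CPM in shScr cells, 3.55 and 3.64 in shRBM10#1 cells, and 6.84 and 6.0 in shRBM10#2 cells, with log2 fold changes of −1.47 (FDR = 8.96e-05) and −0.63 (FDR = 0.00842). ATF4, which drives the response to amino acid shortage, fell by 0.41 log2 units with shRBM10#1 (FDR = 0.00353), and UPP1, uridine phosphorylase, by 0.34 with shRBM10#2 (FDR = 0.0053). The remaining genes that fell with shRBM10#1 were DDIT3 (−0.65) and UPP1 (−0.28), named after their values were seen. Without shScr replicate 1, DDIT3 was no longer called (−0.29, FDR = 0.27), nor without either shRBM10#1 library, and UPP1 was lost without any 1 library except shRBM10#1 replicate 1. With shRBM10#2, ATF3 was lost without shScr replicate 1 (−0.42, FDR = 0.0916) or shRBM10#2 replicate 2, and UPP1 without shRBM10#2 replicate 2. The pooled GADD45A call was lost without either shScr library, where no gene was called, without either shRBM10#1 library and with the replicate block, whereas the calls of GADD45A with each hairpin and of ATF3 and ATF4 with shRBM10#1 were kept without any 1 library.

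ATF3, ATF4, DDIT3 and the GADD45 genes are also known as targets of stress signalling, and what changed the levels of the listed genes here was not tested. Between the hairpins 4 of the 8 were higher with shRBM10#2, as were 1563 of the 14217 genes tested. Among the 4 were ATF3 (0.84), GAS5 (0.42), the host of several small nucleolar RNAs, and GADD45A (0.35). ATF4 (0.24), named after its value was seen, was the other. Without either shRBM10#2 library, GADD45A, GAS5 and ATF4 were no longer called, nor GAS5 without shRBM10#1 replicate 1, nor GADD45A and ATF4 without shRBM10#1 replicate 2. The list medians were −0.35 with shRBM10#1, −0.34 with shRBM10#2 and 0.27 between the hairpins. Among the SMG1P copies, SMG1P5 was higher with shRBM10#2 than with shScr (0.85, FDR = 0.0122), and between the hairpins SMG1P5 (0.92) and SMG1P2 (0.25) were higher with shRBM10#2. The SMG1P5 call against shScr was lost without shScr replicate 1 (0.56, FDR = 0.11) or shRBM10#2 replicate 2, that of SMG1P5 between the hairpins without shRBM10#2 replicate 2, and that of SMG1P2 without shRBM10#1 replicate 2 or either shRBM10#2 library and in DESeq2 (FDR = 0.0665).

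**Figure D4:**
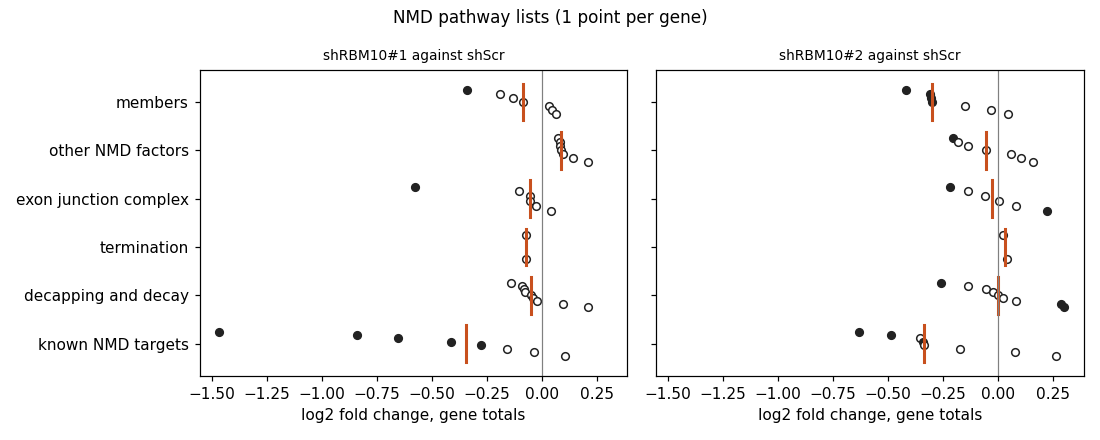
Log2 fold changes of gene totals relative to shScr (x axis) for the 7 members and for 5 lists of the NMD pathway, 1 point per tested gene, with shRBM10#1 on the left and shRBM10#2 on the right. Filled points have an FDR below 0.05, and vertical bars are list medians, which are −0.09 and −0.30 for the members and −0.35 and −0.34 for the known NMD targets.

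Across the 6 libraries, UPF1, SMG5 and SMG6 followed similar courses. Pearson's r of log2 CPM was 0.967 for SMG5 and SMG6, 0.899 for UPF1 and SMG5 and 0.765 for UPF1 and SMG6. Some pairs with other members came near the last value, with 0.726 for UPF3B and SMG6 and 0.672 for SMG1 and SMG6. The lowest value among member pairs was −0.440, for UPF2 and UPF3A. These are descriptions over 6 points that share 3 conditions. The gene most like each member by the same measure was ZC3H18 for UPF1 (r = 0.996), SNX27 for UPF2 (0.990), TMEM37 for UPF3A (0.984), ETS1 for UPF3B (0.997), N4BP2L2-IT2 for SMG1 (0.972), PPL for SMG5 (0.998) and PTDSS2 for SMG6 (0.994). With 14217 genes and 6 libraries such high values are common, and 332 genes had an r above 0.95 with SMG5 and 5 with SMG1.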

How the data were processed

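RNA-seq libraries of PC-9 cells were aligned to hg19 with STAR 2.4 and quantified with RSEM 1.2.29 by the authors, per the submitters' processing notes. The deposited files gave, per RefSeq isoform, an expected count, TPM, FPKM and the isoform's percent of its gene. Expected counts were summed per gene symbol, rounded and tested in edgeR 4.0.16 (R 4.3.3) by glmQLFTest with TMM scaling and filterByExpr, with 1 coefficient per condition, or with shScr against the 4 RBM10 KD libraries. Isoform usage was tested with diffSpliceDGE. Alternatives used DESeq2 1.42.0, limma 3.58.1, other filters and scalings, a replicate block, a transcript length offset and leaving out each library. The scripts were tested on simulated counts with changes of 2 log2 units for shRBM10#2 against shScr. At an FDR below 0.05 they recovered 95% of changed gene totals, 52% of changed isoform totals and 30% of genes with changed usage. The changed features were drawn at random, and changes as small as those of the members were not simulated. The percentages therefore do not give the recovery for the members. The control was shScr, as labelled and as named in the paper's results, whereas its methods name parental PC-9 cells for this comparison. The labels were followed. Strand and duplicate handling are not given in the sources used here. The 2 libraries of each condition were distinct beyond counting noise. Same-numbered libraries did not deviate together (correlations −0.0193 to −0.00383), so no block was used in the main fit. The labels do not say whether the numbers pair libraries, and these correlations cannot decide it.

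The members and lists were chosen with earlier results of these data known. Genes named from a list were the 3 with the lowest FDR among those called. Sequences came from GENCODE 29, which matched 13 of the 14 isoforms. Protein sequences were not used here, and 1 gene of the list of other NMD factors is not reported here.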

Additional observations from a re-analysis of the deposited data

Results flagged for a closer look

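The 3 members UPF1, SMG5 and SMG6 responded differently to the 2 hairpins by the direct test of shRBM10#2 against shRBM10#1 (edgeR quasi-likelihood test, Benjamini-Hochberg adjustment). The log2 fold change was −0.37 for UPF1 (FDR = 0.00359), −0.21 for SMG5 (FDR = 0.0307) and −0.23 for SMG6 (FDR = 0.0424), and no shRBM10#2 value reached a shRBM10#1 value in any of them. Over all genes, 25.5% were called in this comparison, 14.5% were called lower, and 32.1% had every shRBM10#2 value below every shRBM10#1 value. SMG6 was not called by DESeq2 (FDR = 0.0506), and with the replicate block neither SMG5 (FDR = 0.0536) nor SMG6 (FDR = 0.063) was.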

How the results depend on the processing

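No member's gene total passed an absolute log2 fold change above 1, so that adding this criterion gave 0 calls in each comparison. The number of members called ranged over leaving out 1 library at a time from 0 to 1 with shRBM10#1, from 0 to 4 with shRBM10#2 and from 0 to 3 between the hairpins, and it stayed at 0 for the pooled libraries. Under the replicate block, 1 member was called between the hairpins (UPF1), and with the block and a length offset 3 were. The block changed no other count of members. It ended the calls of MAGOHB (FDR = 0.071), CASC3 (FDR = 0.0505) and RUVBL2 (FDR = 0.0553) with shRBM10#2 and of GADD45A in the pooled comparison (FDR = 0.0967, and 0.0936 with the length offset), MAGOHB was also lost with no filter (FDR = 0.051), and the block lowered the pooled count over all genes from 230 to 52. In the pooled comparison 1 member was called by DESeq2 and 3 with a coefficient per condition, where all genes called rose to 718 and 2610. By FDR alone, 1 member isoform was called with shRBM10#2 (NM_001256828) and 1 between the hairpins (NM_002911). DESeq2 raised the isoforms called from 6 to 528, 130 to 809 and 95 to 707, and the block lowered each to 0. Genes with a usage call went from 11 to 42, 176 to 571 and 123 to 339 with limma. The causes were not tested.

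Members near a fold change of 0 changed sign. Between the hairpins UPF2 was −0.0011 with DESeq2, −0.00094 with its size factors, and −0.026 with the length offset, with or without the block. In the pooled comparison UPF3A was −0.0031 with DESeq2, −0.0032 with its size factors, −0.000043 with no filter, −0.0049 with a minimum of 10 counts per library, −0.00098 with the block, −0.0078 with the length offset and −0.0082 with both. With the SMG1P counts added, an alternative chosen after seeing the data, SMG1 was 0.10 between the hairpins. Leaving out 1 library moved UPF1 with shRBM10#1 between −0.048 and 0.17, UPF2 between −0.017 and 0.11 with shRBM10#1 and in the pooled comparison and between −0.0175 and 0.11 with shRBM10#2, UPF3A with shRBM10#1 between −0.076 and 0.13, and SMG1 with shRBM10#2 between −0.33 and 0.013. Between the hairpins the ranges were −0.058 to 0.056 for UPF2, −0.16 to 0.045 for UPF3A, −0.065 to 0.13 for UPF3B and −0.20 to 0.15 for SMG1, and UPF3A ranged from −0.046 to 0.025 in the pooled comparison. Of 424 alternative values for the members, 361 kept sign and call, 30 lost the call, 4 gained it and 29 changed sign. Of 420 for the genes called in the lists, 321 kept both and 99 lost the call. ATF3 with shRBM10#1 kept its call under all 15 alternatives, and RNPS1 with shRBM10#1 under all but the fold criterion.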

Other observations

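GENCODE 29 types some transcripts as NMD targets, and 915 isoforms of 698 genes in the files matched one. These isoforms took 5.79% and 5.66% of their genes' counts with shScr, 5.44% and 5.23% with shRBM10#1, and 5.71% and 5.72% with shRBM10#2. By this share both shRBM10#1 libraries were lowest, and the shRBM10#2 libraries lay between the controls. The summed TPM of these isoforms was 1364 and 1461 with shScr, 1294 and 1237 with shRBM10#1, and 1346 and 1341 with shRBM10#2. By that measure the libraries of both hairpins lay below both controls, and both shRBM10#1 libraries were again lowest. The higher control value was that of shScr replicate 2, the library with the shorter fragments. Of the 488 isoforms that were tested, edgeR called none in any comparison by FDR and fold criteria. At an unadjusted p below 0.05 there were 31 with shRBM10#1, 46 with shRBM10#2, 45 between the hairpins and 39 in the pooled comparison. DESeq2 called 6, 16, 20 and 2. Among all 26464 isoforms, 3832, 5699, 5377 and 2875 had an unadjusted p below 0.05 in edgeR, and DESeq2 called 528, 809, 707 and 271. The median log2 fold change of the 488 isoforms was −0.08 with shRBM10#1, 0.01 with shRBM10#2 and 0.10 between the hairpins, beside 0, 0.0019 and 0.01 over all isoforms.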
